A study of Mus musculus with 34 samples.

Results

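The genes described here were the 7 sirtuins, *Sirt1* to *Sirt7*, and 3 genes of NAD metabolism, *Nampt*, *Nmnat1* and *Nnmt*. They were chosen by name, as 10 of the 78298 genes counted in whole liver, to see whether the sirtuins of the liver change when *Sirt1* is lost in the intestine, before and after partial hepatectomy (PHx), the surgical removal of part of the liver. SIRT1intKO mice carried a Villin-Cre transgene, which is active in the intestinal epithelium, and *Sirt1* alleles with loxP sites around exon 4. The controls, called WT, carried the loxP-flanked *Sirt1* alleles without the Cre. All mice were males of a C57/Bl6 background aged 8 to 12 weeks. PHx took out the left lateral and median lobes, and livers at 0 hours were untreated. There were 6 WT and 6 SIRT1intKO livers at 0 hours, 6 and 5 at 6 hours, and 4 and 7 at 24 hours after PHx, each giving 1 library of polyA RNA and labelled as biological replicates.

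Sirtuins are NAD-dependent enzymes that remove acetyl or other acyl groups from lysines, and each reaction splits NAD and releases nicotinamide. In the liver they act on fasting metabolism, fatty acid oxidation, the circadian clock and chromatin. SIRT1, SIRT6 and SIRT7 sit mainly in the nucleus, SIRT2 mainly in the cytosol, and SIRT3, SIRT4 and SIRT5 in mitochondria. NAMPT turns nicotinamide into nicotinamide mononucleotide, the rate-limiting step of NAD salvage, and NMNAT1 turns that product into NAD in the nucleus. NNMT methylates nicotinamide with S-adenosylmethionine as the methyl donor and so takes it out of salvage.

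*Sirt1* lies on the minus strand of mouse chromosome 10 (GRCm38, chr10:63319005-63381704). Exon 4, the stretch between the loxP sites, is shown because its loss in the intestine defines the SIRT1intKO genotype. It spans chr10:63331745-63331897 and is 153 bases long, or 51 codons. The *Sirt1* promoter is shown because *Sirt1* is the gene deleted in the intestine and its promoter holds letters bound by clock factors. The 250 bases before the RefSeq start site (GRCm38.p6, chr10:63339036-63339285, minus strand) hold the E-box letters CACGTG at 115 and 43 bases before the start, marked by the capitals.
Sirt1 exon 4: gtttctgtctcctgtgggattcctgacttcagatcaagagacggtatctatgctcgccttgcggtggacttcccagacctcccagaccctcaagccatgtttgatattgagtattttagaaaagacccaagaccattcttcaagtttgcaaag
Sirt1 promoter: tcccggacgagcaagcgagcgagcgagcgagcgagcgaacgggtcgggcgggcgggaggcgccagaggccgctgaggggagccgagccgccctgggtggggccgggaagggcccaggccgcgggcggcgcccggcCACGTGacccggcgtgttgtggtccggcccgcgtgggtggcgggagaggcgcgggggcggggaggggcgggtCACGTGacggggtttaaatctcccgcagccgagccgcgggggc

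Promoters were searched from 250 bases before to 50 bases after each RefSeq start site, on both strands, and 12 promoters of 9 of the 10 genes had an entry. CACGTG was found in 7.15% of all 32851 promoters and, among these genes, in *Sirt1*, or 1 of 12 promoters, a share near that of all promoters. The STAT-like letters TTCNNNGAA were found in 8.3% of promoters and, among these genes, in *Sirt7*, at 91 bases before the start. These are matches of letters only. The deposited counts are per gene, so they cannot show whether liver transcripts held exon 4. The deletion lies in another organ, so liver *Sirt1* is no check of the labels.

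Libraries held 14892122 to 23480492 counts, with a median of 16807340. The hepatocyte gene *Alb* reached 15000 to 56300 CPM over the 34 libraries, where CPM is the count of a gene scaled to the size of its library, and *Vil1*, the gene whose promoter drives the Cre, stayed between 0 and 0.801 CPM and was too low to test. Principal components computed without the 10 genes set some libraries apart from their group. WT livers 1 and 2 at 24 hours lay at -86.2 and -95.9 on the first component, while WT livers 3 and 4 lay at 8 and 17.6, toward the untreated livers at 50.9 to 78.2. Of the SIRT1intKO livers at 24 hours, number 5 lay at -8.1 and the other 6 between -80.3 and -49.7. SIRT1intKO livers 2 and 3 at 6 hours stood at -25.9 and -17.1 on the second component, against -50.1 to -45.5 for the other 3 of their group. These subsets were made after the data were seen and are not groups of the study, and results that rest on them are given with and without them. In bulk tissue, fewer cells of a type and less RNA per cell cannot be told apart. The labels number the untreated livers in a series of their own, so a difference in handling and the effect of PHx cannot be told apart either.

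All 10 genes passed the filter on low counts, which left 14980 genes to test with edgeR's quasi-likelihood model. A gene is said to have risen or fallen where its Benjamini-Hochberg adjusted p over all genes tested was under 0.05. Compared per kilobase of exon, the level of *Nnmt* was far above the rest in untreated WT livers, with a median of 89.8 CPM per kilobase. *Sirt3*, *Sirt7* and *Sirt2* followed at 9.28, 8.88 and 8.79, and their ranges over the 6 livers overlapped. *Nampt* and *Nmnat1* came next at 5.84 and 5.02, also with overlapping ranges, then *Sirt4* at 3.51 with a range of its own. *Sirt1*, *Sirt5* and *Sirt6* were the lowest at 2.28, 1.85 and 1.3, each overlapping its neighbor in that order. *Nnmt* stayed first in all 6 groups, and at 24 hours *Nampt* held the next place with medians of 13.7 in WT and 9.99 in SIRT1intKO livers. The ranges of *Nampt* there were 3.42 to 35.8 and 3.92 to 26.1. They overlapped those of *Sirt2*, *Sirt7* and *Sirt3*, so this place does not hold in every liver.

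**Figure D1:**
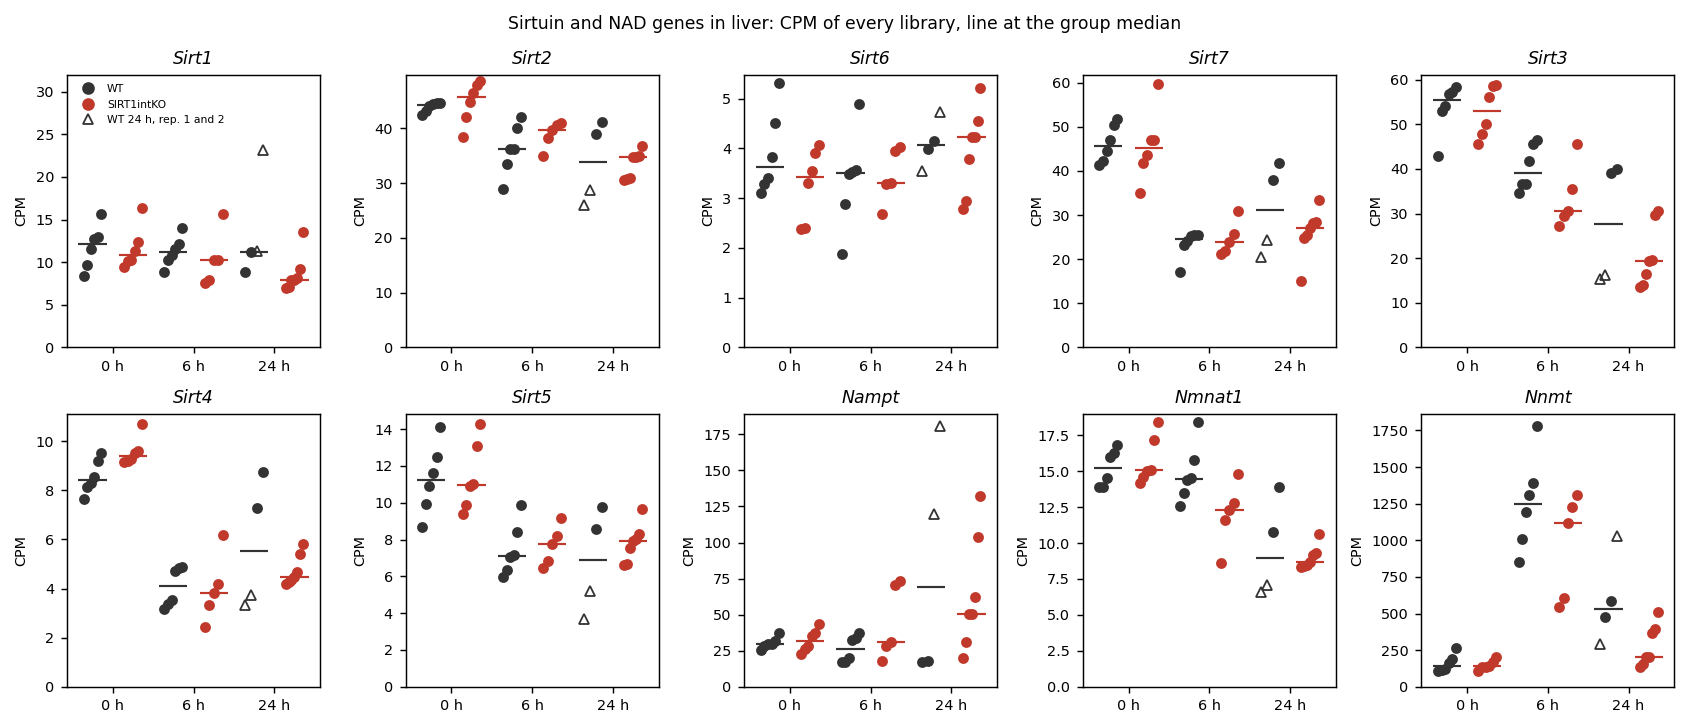
CPM of the 10 genes in every library, with 1 panel a gene, a linear axis from 0, and time after PHx along the x axis. Black is WT and red SIRT1intKO, lines are group medians, and open triangles are WT livers 1 and 2 at 24 hours. *Nnmt* stood at 107 to 263 CPM in the 12 untreated livers and at 546 to 1780 CPM at 6 hours, and at 24 hours the 4 WT livers split for *Nampt* into 120 and 181 against 18.2 and 17.3 CPM.

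In untreated livers none of the 10 genes passed the edgeR test between genotypes, and neither did any other gene, for a background of 0%. DESeq2 also called 0 of the 10. At an unadjusted p under 0.05 there were 161 genes, 0 of them among the 10. The log2 fold changes of SIRT1intKO against WT livers lay between -0.26 for *Sirt6* and 0.16 for *Sirt4*. For *Sirt1* itself the difference was -0.02 with a 95% interval of -0.44 to 0.4. *Sirt2* had the tightest interval, -0.17 to 0.23, and *Nampt* the widest, -0.81 to 1.

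At 6 hours after PHx edgeR again called none of the 10, with 0% of all genes called, and DESeq2 called 0 of the 10 as well. There were 976 genes at an unadjusted p under 0.05, of which *Nmnat1* was 1. *Nmnat1* measured 12.6 to 18.4 CPM in WT livers, with a median of 14.5. In the SIRT1intKO livers it measured 14.8, 11.6, 8.62, 12.3 and 12.8 CPM. The groups overlapped, and the log2 fold change was -0.31 (SE 0.145, adjusted p 0.761, edgeR), or -0.17 without SIRT1intKO livers 2 and 3. *Nampt*, the salvage enzyme, was high in those same livers, at 73 and 70.2 CPM against 18, 30.7 and 28.2 in the other 3. Its log2 fold change of 0.75 (95% interval -0.21 to 1.7) became -0.04 without them. For *Sirt1* the 6-hour difference was -0.13, with an interval of -0.57 to 0.32.

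At 24 hours *Nnmt* was the only one of the 10 that passed between genotypes over all libraries, and it was lower in SIRT1intKO livers. It measured 294, 1030, 584 and 475 CPM in the 4 WT livers. In the 7 SIRT1intKO livers it ranged from 138 to 509 CPM, with a median of 206. The SIRT1intKO group was the lower of the pair, though the groups overlapped, with 3 of its livers above the lowest WT liver. The log2 fold change was -1.08 (SE 0.334, adjusted p 0.0453, edgeR), so 1 of 10 genes was called against a background of 5.81%. It also passed the fold threshold of the study, an absolute log2 fold change over 1, which 2.68% of all genes did. DESeq2 gave -1.07 (adjusted p 0.027), the fit of these groups alone -1.08 (adjusted p 0.308), and the fit of every gene with a count -1.07 (adjusted p 0.0626). The call did not hold without certain single livers. The log2 fold change was -0.68 (adjusted p 0.23) without WT liver 2 and -1.12 (0.0574) without WT liver 3. Leaving out SIRT1intKO liver 1, 4, 6 or 7 gave -1.04, -1.02, -0.94 and -0.97, with adjusted p-values of 0.0699, 0.0672, 0.0933 and 0.0832.

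Liver *Sirt1* did not pass the test at 24 hours, although 1 WT library stood high. The WT livers measured 23.1, 11.3, 8.8 and 11.2 CPM. The SIRT1intKO livers measured 6.92, 7.12, 7.87, 13.5, 8.16, 7.86 and 9.17 CPM. WT liver 1 and SIRT1intKO liver 4 were the high ones of their groups, and the groups overlapped. The log2 fold change was -0.65 (SE 0.223, 95% interval -1.1 to -0.19, adjusted p 0.0726, edgeR). It was -0.29 (adjusted p 0.403) without WT liver 1, and it passed the test without SIRT1intKO liver 4 (-0.79, adjusted p 0.0291) or without WT liver 3 (-0.83, adjusted p 0.026). The interaction, which is the difference between genotypes in their change from 0 hours, was -0.62 for *Sirt1* (adjusted p 0.388) and -0.96 for *Nnmt* (adjusted p 0.37), and neither passed. Over all genes edgeR called 0 for the interaction at 6 hours (0%) and 1 at 24 hours (0.00668%), with 457 and 1904 at an unadjusted p under 0.05, 0 and 2 of them among the 10.

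**Figure D2:**
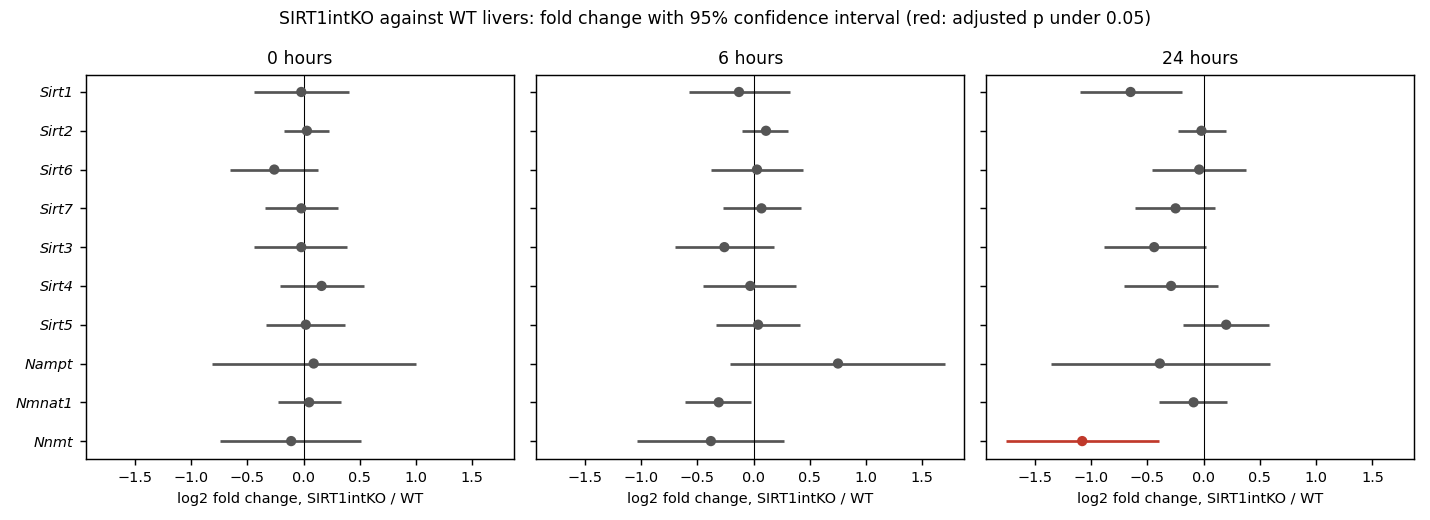
Log2 fold change of SIRT1intKO against WT livers at 0, 6 and 24 hours for the 10 genes, with bars for 95% intervals of the edgeR fit, a vertical line at 0 and red for an adjusted p under 0.05. At 24 hours the intervals of *Nnmt* (-1.76 to -0.4) and *Sirt1* (-1.1 to -0.19) lay below 0, and of these *Nnmt* passed the test after adjustment.

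The 24-hour comparison depended on which WT livers stood as the reference. Without WT livers 1 and 2, 5 of the 10 genes passed, and without WT livers 3 and 4, 4 passed. The share of all genes called in these fits is not given here. Without that share, the counts show only that calls depend on the livers used and cannot be read as a trait of the 10 genes. Against WT livers 3 and 4, *Sirt3* (-0.96, adjusted p 0.00311), *Sirt4* (-0.76, 0.00844), *Sirt7* (-0.61, 0.0215) and *Nmnat1* (-0.46, 0.0314) were lower in SIRT1intKO livers and *Nampt* was higher (1.85, 0.0179). Against WT livers 1 and 2, *Sirt1* (-1.01, adjusted p 0.00568), *Nampt* (-1.26, 0.0416) and *Nnmt* (-1.26, 0.0295) were lower and *Sirt5* was higher (0.79, 0.00931). *Nampt* therefore passed with either pair, in opposite directions. *Sirt3*, *Sirt4*, *Sirt7* and *Nmnat1* also changed sign, to 0.35, 0.4, 0.19 and 0.37 against WT livers 1 and 2, where none of them passed. *Nnmt* and *Sirt1* were lower in SIRT1intKO livers with either pair, at -0.91 and -0.21 against WT livers 3 and 4, where neither passed. *Sirt6* stayed between -0.08 and -0.03.

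**Figure D3:**
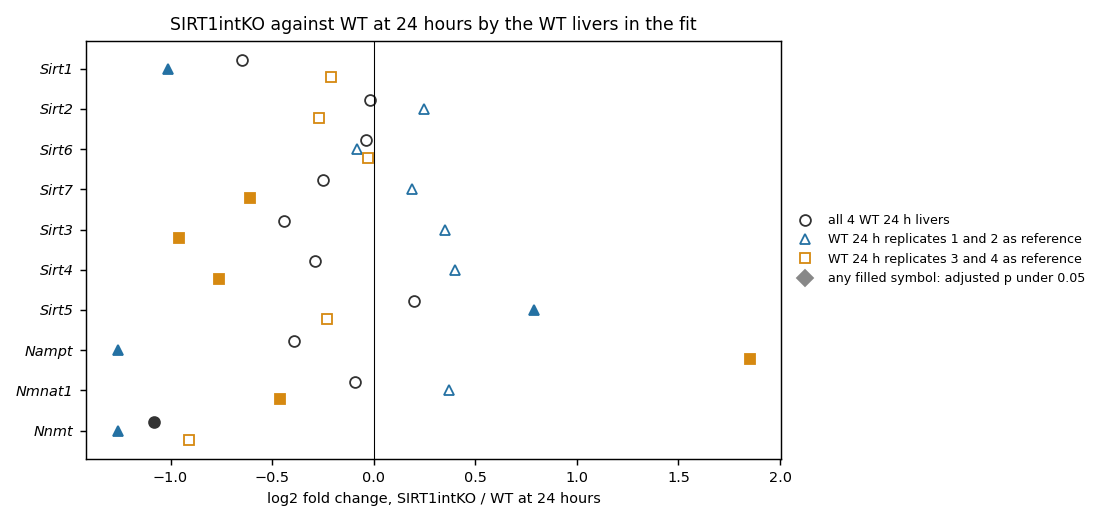
Log2 fold change of SIRT1intKO against WT livers at 24 hours for the 10 genes, with all 4 WT livers, with WT livers 3 and 4 alone and with WT livers 1 and 2 alone as the reference. Filled symbols mark an adjusted p under 0.05. *Nampt* moved from -0.39 to 1.85 and -1.26 across these references, while *Nnmt* stayed between -1.26 and -0.91.

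After PHx more of the 10 genes passed than between genotypes. At 6 hours 5 of the 10 genes passed the test in WT livers, against a background of 37.4%, and 6 in SIRT1intKO livers, against 38.4%. At 24 hours it was 8 in WT livers, against 34.1%, and 7 in SIRT1intKO livers, against 50.2%. Every sirtuin that passed was lower, 4 of 7 in WT livers at 6 hours, against 18.5% of all genes, and 4 of 7 in SIRT1intKO livers, against 17.6%. At 24 hours 5 of 7 were lower in each genotype, against 14.6% in WT and 24% in SIRT1intKO livers. No sirtuin was called higher, against 18.9% and 20.9% of all genes at 6 hours and 19.5% and 26.2% at 24 hours in WT and SIRT1intKO livers. The median log2 fold change of the 7 sirtuins was -0.41 and -0.57 at 6 hours and -0.56 and -0.54 at 24 hours, in WT and SIRT1intKO livers, while the median over all genes tested lay between 0.01 and 0.04. With the fold threshold of the study as well, 2 of the 10 genes passed in each of these comparisons, against 15.6%, 16.6%, 15.7% and 23% of all genes. The genotypes have separate untreated livers, and the comparisons at 6 and 24 hours within a genotype share theirs.

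Among the nuclear and cytosolic sirtuins, *Sirt7*, a nucleolar deacetylase linked to ribosomal gene transcription, had the largest fall. It measured 41.3 to 51.8 CPM in untreated WT livers, with a median of 45.7, and 17.1 to 25.5 at 6 hours, with a median of 24.6. In SIRT1intKO livers it went from 35.1 to 59.6 CPM, with a median of 45.2, to 30.9, 25.6, 23.8, 21.1 and 21.8. In both genotypes every liver at 6 hours was below every untreated liver, a separation seen in 24.1% and 26.2% of all genes. The log2 fold changes at 6 hours were -0.98 (SE 0.16, adjusted p 1.76e-05, edgeR) in WT and -0.89 (SE 0.168, adjusted p 0.000134) in SIRT1intKO livers. At 24 hours *Sirt7* was still lower in SIRT1intKO livers, at 15.1 to 33.5 CPM (-0.81, adjusted p 7.53e-05). In WT livers at 24 hours it measured 20.6, 24.3, 37.9 and 41.7 CPM (-0.57, adjusted p 0.015). That call was lost without WT liver 1 (-0.41, 0.109) or WT liver 2 (-0.47, 0.0867).

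*Sirt2*, a tubulin and histone deacetylase, was the steadiest of the sirtuins in untreated WT livers and fell by little. It measured 42.5 to 44.6 CPM there and 28.9 to 42 at 6 hours, with no overlap, as for 24.1% of all genes. The log2 fold change in WT livers was -0.28 at 6 hours (SE 0.0967, adjusted p 0.0225, edgeR), or -0.22 (adjusted p 0.0793) without WT liver 6. In SIRT1intKO livers it was -0.2 at 6 hours (adjusted p 0.113), which did not pass, though it did with upper-quartile scaling (-0.28) or with at least 10 counts in every library. At 24 hours *Sirt2* fell in both genotypes, by 0.38 on the log2 scale in WT livers (adjusted p 0.00782) and by 0.42 in SIRT1intKO livers (adjusted p 0.000381). The WT change was -0.27 (0.0747) without WT liver 1 and -0.31 (0.054) without WT liver 2. *Sirt1* and *Sirt6*, a deacetylase of telomeric and glucose-responsive chromatin, passed in no comparison over all libraries. For *Sirt1* the change in SIRT1intKO livers at 24 hours was -0.43 (SE 0.2, adjusted p 0.074), and it passed without SIRT1intKO liver 4 at 24 hours (-0.57, 0.0178) or without untreated SIRT1intKO liver 4 (-0.5, 0.049). *Sirt6* rested on the fewest reads, 24 to 139 counts a library, and its group medians ran from 3.31 to 4.22 CPM.

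All 3 mitochondrial sirtuins were lower at 24 hours in both genotypes. *Sirt4*, which acts on glutamate and lipid metabolism, had the largest fall of the 7 sirtuins at 6 hours. It measured 7.63 to 9.5 CPM in untreated WT livers and 3.18 to 4.89 at 6 hours. In SIRT1intKO livers it went from 9.17 to 10.7 CPM to 6.16, 3.31, 2.45, 4.19 and 3.83. The groups did not overlap in either genotype, a separation seen in 24.1% and 26.2% of all genes. The log2 fold changes were -1.07 (SE 0.191, adjusted p 5.83e-05, edgeR) and -1.26 (SE 0.2, adjusted p 1.66e-05). At 24 hours *Sirt4* stayed low in the SIRT1intKO livers, at 4.19 to 5.8 CPM (-1.02, adjusted p 3.29e-05). The WT livers at 24 hours measured 3.75, 3.31, 7.28 and 8.76 CPM, so WT livers 3 and 4 lay at or near the untreated range. Their change of -0.56 (adjusted p 0.0399) was lost without any 1 of WT livers 1 (-0.4, 0.191) and 2 (-0.37, 0.217) at 24 hours or of untreated WT livers 2 (-0.56, 0.0515), 3 (-0.57, 0.0517), 4 (-0.54, 0.0644) and 5 (-0.53, 0.0685).

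*Sirt3*, the main mitochondrial deacetylase, passed in WT livers at 24 hours and not at 6, where it passed with the compared groups alone (-0.38). It measured 42.9 to 58.4 CPM in untreated WT livers and 34.7 to 46.6 at 6 hours (-0.41, adjusted p 0.114). Among SIRT1intKO livers the range went from 45.5 to 58.9 CPM to 45.5, 30.6, 27.2, 35.6 and 29.5 at 6 hours. That change of -0.65 (SE 0.216, adjusted p 0.0182, edgeR) was -0.58 (0.0536) without SIRT1intKO liver 3. At 24 hours the WT livers measured 16.2, 15.3, 39 and 40.1 CPM, and the SIRT1intKO livers 13.6 to 30.5 with a median of 19.4. Both groups lay below every untreated liver of their genotype, a separation seen in 19.3% and 22% of all genes. The log2 fold changes were -0.96 (SE 0.23, adjusted p 0.00247) and -1.37 (SE 0.198, adjusted p 2.12e-06). From 6 to 24 hours *Sirt3* fell in the SIRT1intKO livers by 0.72 on the log2 scale (adjusted p 0.0104), or by 0.57 (0.0545) without SIRT1intKO liver 1 at 6 hours. Between genotypes the difference in the change from 0 hours was -0.41 at 24 hours (interval -1.03 to 0.21).

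*Sirt5*, a desuccinylase and demalonylase, fell in both genotypes at both times. It measured 8.68 to 14.1 CPM in untreated WT livers and 5.99 to 9.87 at 6 hours, with some overlap. The SIRT1intKO livers went from 9.4 to 14.3 CPM to 6.48 to 9.16, with none, as for 26.2% of all genes. The log2 fold changes at 6 hours were -0.59 (SE 0.172, adjusted p 0.00788, edgeR) and -0.57 (SE 0.181, adjusted p 0.0133), and at 24 hours -0.72 (adjusted p 0.00523) and -0.54 (adjusted p 0.00679). WT livers 1 and 2 at 24 hours held the lowest values, 5.23 and 3.66 CPM, against 8.59 and 9.76 in WT livers 3 and 4.

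Of the 3 NAD metabolism genes, *Nnmt* had the largest rise. It measured 110 to 263 CPM in untreated WT livers, with a median of 141, and 852 to 1780 CPM at 6 hours, with a median of 1250. The SIRT1intKO livers went from 107 to 201 CPM, with a median of 140, to 1310, 603, 546, 1230 and 1120. No liver at 6 hours overlapped an untreated liver of its genotype, a separation seen in 24.1% and 26.2% of all genes. The fold changes were 7.84 in WT (log2 2.97, SE 0.308, adjusted p 4.65e-08, edgeR) and 6.5 in SIRT1intKO livers (log2 2.7, SE 0.323, adjusted p 3.58e-07). At 24 hours it was still up, by 1.89 (adjusted p 0.00011) in WT and 0.93 (adjusted p 0.0112) in SIRT1intKO livers on the log2 scale. From 6 to 24 hours it fell by 1.77 in SIRT1intKO livers (adjusted p 0.000124), without overlap, as 8.81% of all genes, with 27.6% of all genes called. It was the 1 gene of the 10 that passed the fold threshold there, as 10.6% of all genes did. In WT livers it fell by 1.08 (adjusted p 0.0352, background 16.5%). That call was lost without WT liver 1 (-0.82, 0.168), 3 (-1.03, 0.0694) or 4 (-0.99, 0.0792) at 24 hours, or without WT liver 2 (-1.07, 0.0519), 3 (-1.01, 0.0658), 4 (-1.03, 0.0559) or 6 (-0.96, 0.0724) at 6 hours.

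*Nampt* spread widely among WT livers at 24 hours. In untreated livers it measured 25.2 to 37 CPM in WT and 23 to 43.3 in SIRT1intKO mice. At 24 hours the WT livers measured 120, 181, 18.2 and 17.3 CPM, on both sides of the untreated range. The SIRT1intKO livers measured 104, 61.9, 50.5, 132, 19.8, 31.3 and 50.2 CPM, with number 5 the lowest. The WT change from 0 hours was 1.47 (SE 0.495, adjusted p 0.0198, edgeR), or 1.28 (0.076) without WT liver 1, 0.78 (0.278) without WT liver 2 and -0.77 (0.44) without both. The SIRT1intKO change was 0.99 (SE 0.428, adjusted p 0.0564), and it passed with DESeq2 or without SIRT1intKO liver 5 (1.15, 0.0248) or 6 (1.15, 0.0333). From 6 to 24 hours *Nampt* rose in WT livers by 1.68 on the log2 scale (adjusted p 0.0181), or 1.5 (0.0648) and 1 (0.189) without WT liver 1 or 2 at 24 hours.

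*Nmnat1* fell at 24 hours in both genotypes. It measured 13.9 to 16.8 CPM in untreated WT livers and 6.58, 7.08, 13.9 and 10.8 at 24 hours, with WT livers 1 and 2 the lowest. In SIRT1intKO livers it went from 14.2 to 18.4 CPM to 8.35 to 10.6, with no overlap, as for 22% of all genes. The log2 fold changes were -0.66 (SE 0.154, adjusted p 0.00168, edgeR) and -0.81 (SE 0.133, adjusted p 1.15e-05). At 6 hours it fell in SIRT1intKO livers (-0.39, adjusted p 0.0326), a call lost without SIRT1intKO liver 3 at 6 hours (-0.29, 0.124) or untreated liver 6 (-0.34, 0.0761), and it was -0.03 in WT livers. From 6 to 24 hours it fell by 0.63 in WT livers (adjusted p 0.00593), or 0.47 (0.0551) without WT liver 1 at 24 hours. In SIRT1intKO livers *Nmnat1* fell by 0.42 (adjusted p 0.0253). That was -0.31 (0.118), -0.39 (0.0618) and -0.38 (0.0682) without SIRT1intKO liver 1, 4 or 5 at 6 hours and -0.36 (0.0648) without number 6 at 24 hours.

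The WT changes at 24 hours also depended on the livers used. The fits below leave out livers, and their shares of all genes called are not given here. Without WT livers 1 and 2, 1 of the 10 genes passed, *Nnmt* (1.73, adjusted p 0.00503). Without WT livers 3 and 4, the same 8 genes passed as with all 4, and the log2 fold changes were -1.76 for *Sirt3*, -1.33 for *Sirt5*, -1.26 for *Sirt4*, -1.14 for *Nmnat1*, -1.03 for *Sirt7*, 2.06 for *Nnmt* and 2.33 for *Nampt*. In the SIRT1intKO livers at 6 hours without numbers 2 and 3, *Sirt4* (-1.05, adjusted p 0.000922), *Sirt7* (-0.92, 0.00188) and *Nnmt* (3.02, 2.79e-07) passed. *Sirt3* (-0.55, 0.122), *Sirt5* (-0.55, 0.062) and *Nmnat1* (-0.27, 0.223) did not.

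The wider NAD pathway was read from 5 lists with 41 other genes, 38 of them tested. Between genotypes 0 of the 38 passed in edgeR at 0 and at 6 hours, as 0% of all genes did, and 5 at 24 hours (13.2%, against 5.81% of all genes). At 6 hours 20 passed in WT livers (52.6%, against 37.4%) and 17 in SIRT1intKO livers (44.7%, against 38.4%). At 24 hours 19 passed in each genotype (50%), of which 15 and 16 fell. The share of all genes was then 34.1% in WT and 50.2% in SIRT1intKO livers, so the SIRT1intKO count was at the background. Without WT liver 1 at 24 hours the WT count was 11. Without WT livers 1 and 2, 5 of the 38 passed in WT livers at 24 hours, and without WT livers 3 and 4, 26 did. The shares of all genes called in those fits are not given here. Of the 8 tested genes listed for the pathway from tryptophan to NAD, 5 passed in each genotype at 6 hours, 4 of them lower. At 24 hours 6 passed in WT and 7 in SIRT1intKO livers, all lower. The shares of 62.5% in each genotype, 75% and 87.5% stood against 37.4%, 38.4%, 34.1% and 50.2% of all genes. *Afmid*, the kynurenine formamidase, fell from 93 to 142 CPM in untreated WT livers to 16 to 53.6 at 6 hours (-1.93, adjusted p 0.000284, edgeR). *Ido2* (-1.48) and *Kynu*, the kynureninase (-1.08), fell there too. At 24 hours *Tdo2*, the liver's main tryptophan dioxygenase, fell by 1.3 in WT and 1.9 in SIRT1intKO livers on the log2 scale. *Haao* fell by 1.38 and 1.79. *Kmo*, the kynurenine monooxygenase, rose at 6 hours (0.76 and 0.63) and was lower at 24 hours (-0.44 and -0.47).

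In the salvage list, 1 of 6 tested genes passed at 6 hours in each genotype (16.7%), below the 37.4% and 38.4% of all genes. It was *Nmrk1*, the nicotinamide riboside kinase, at -1.14 in WT (adjusted p 0.000133) and -0.88 in SIRT1intKO livers (adjusted p 0.00312). At 24 hours 3 passed in WT livers, *Nmrk1* (-0.91), *Nadsyn1* (-0.46) and *Nt5e* (0.94), and 2 in SIRT1intKO livers, *Nmrk1* (-0.67) and *Naprt* (-0.8), against 34.1% and 50.2% of all genes. Of 12 other NAD-consuming enzymes, 7 passed in WT livers at 6 hours, 5 of them higher, and 4 in SIRT1intKO livers, 3 of them higher. These were 58.3% and 33.3%, against 37.4% and 38.4% of all genes, and at 24 hours 2 (16.7%) and 3 (25%) passed, below the 34.1% and 50.2% of all genes. *Parp1*, the DNA damage polymerase, fell at 6 hours (-0.64 and -0.44 in WT and SIRT1intKO livers) and *Parp2* rose (0.41 and 0.45). *Parp10* was higher at both times in both genotypes (0.76, 0.8, 0.52 and 0.66). *Cd38*, an NAD glycohydrolase of immune cells, rose in WT livers at 6 hours (0.49, adjusted p 0.02) and did not pass in SIRT1intKO livers (0.31, adjusted p 0.161). *Bst1*, a related glycohydrolase of myeloid cells, passed only in SIRT1intKO livers at 24 hours (3.3, adjusted p 2.47e-06), where it measured 1.45, 4.55, 1.91, 2.98, 0.422, 2.94 and 1.9 CPM. The interaction for *Bst1* did not pass.

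Of the 7 genes for NAD phosphorylation, repair and transport, 4 passed in each genotype at each time (57.1%), against 37.4% and 38.4% of all genes at 6 hours and 34.1% and 50.2% at 24 hours. *Slc25a51*, the mitochondrial NAD carrier, rose at 6 hours from 84.4 to 148 CPM to 254 to 355 in WT livers (1.37, adjusted p 3.38e-05) and by 1.54 in SIRT1intKO livers. *Nadk2*, the mitochondrial NAD kinase, fell at both times (-1.32, -1.36, -0.87 and -1.07), as did *Naxe* (-0.58, -0.51, -0.61 and -0.34) and *Naxd*, which repair damaged NAD hydrates. The last list held 5 genes of S-adenosylmethionine metabolism or of the clearance of methylnicotinamide. At 6 hours 3 passed in each genotype (60%, against 37.4% and 38.4%). At 24 hours 4 passed in WT (80%, against 34.1%) and 3 in SIRT1intKO livers (60%, against 50.2%). *Mat1a*, which makes S-adenosylmethionine, rose at 6 hours from 1250 to 2060 CPM to 7030 to 10500 in WT livers (2.58, adjusted p 1.15e-08). It rose by 2.51 in SIRT1intKO livers. *Aox1* and *Aox3*, aldehyde oxidases that act on methylnicotinamide, fell at 6 hours (-1.27 and -1.65 in WT, -0.9 and -1.42 in SIRT1intKO livers).

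Some of these WT changes at 24 hours did not pass without WT livers 1 and 2. These were *Nmrk1* (-0.6, adjusted p 0.168), *Nadsyn1* (-0.11, 0.786), *Nt5e* (0.41, 0.667), *Parp10* (0.23, 0.536), *Nadk2* (-0.54, 0.245) and *Naxe* (-0.5, 0.0634). Without WT liver 2 alone *Nt5e* was 0.49 (0.385) and *Nadsyn1* -0.25 (0.264), and without WT liver 1 alone *Parp10* was 0.37 (0.0984). *Haao* (-0.8, 0.0352) still passed.

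**Figure D4:**
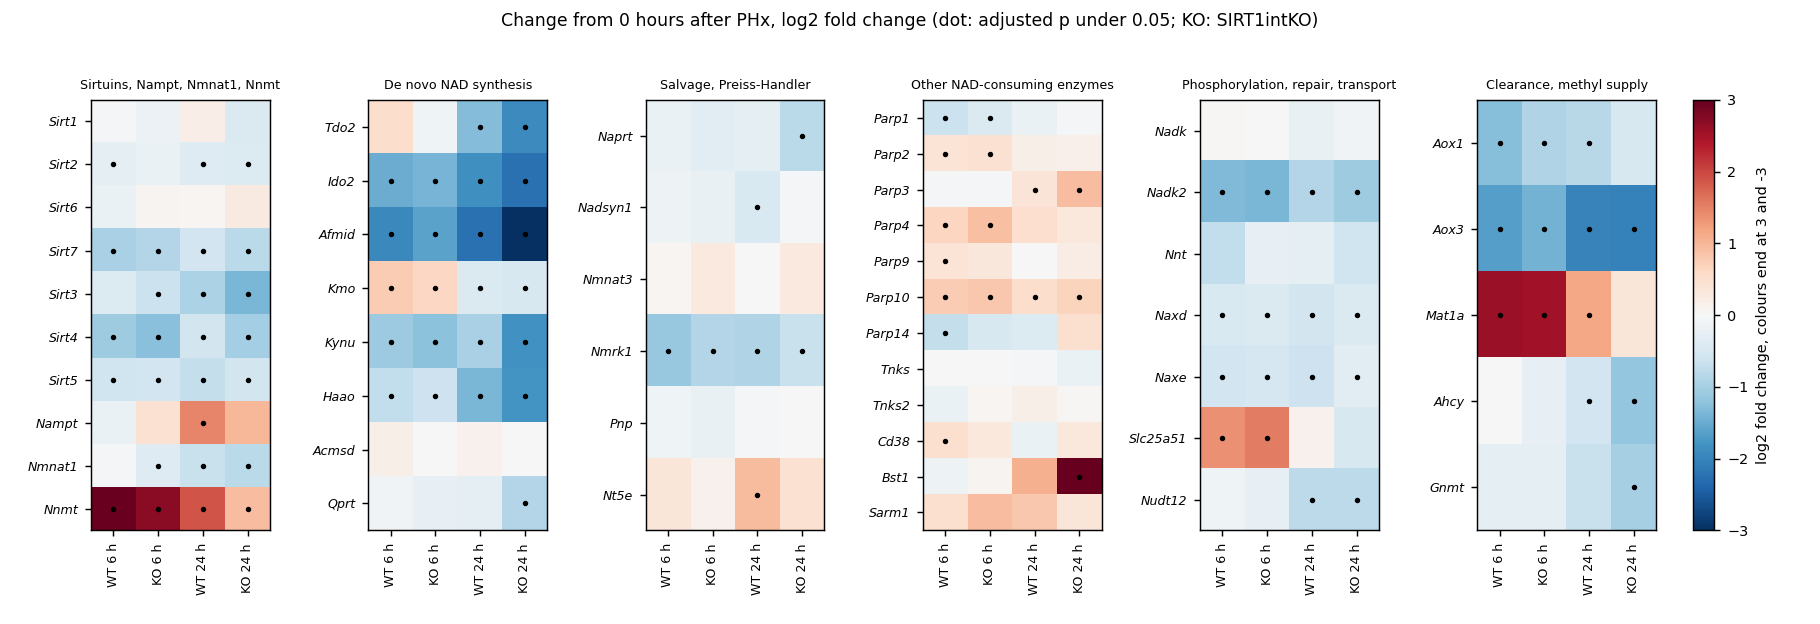
Heat map of the log2 fold change from 0 hours at 6 and 24 hours after PHx in WT and SIRT1intKO (KO) livers for the 10 genes and the tested genes of the 5 NAD lists, with colours that end at 3 and -3 and a dot for an adjusted p under 0.05. Most of the called de novo genes were lower, *Nmrk1* was lower in all 4 columns, and *Nnmt* (2.97 and 2.7) and *Mat1a* (2.58 and 2.51) were higher at 6 hours.

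The 5 genes of these lists that passed between genotypes at 24 hours were *Afmid* (-1.53, SE 0.425, adjusted p 0.027, edgeR), *Slc25a51* (-0.85, 0.0386), *Mat1a* (-0.92, 0.038) and *Ahcy* (-0.57, 0.0294), all lower in SIRT1intKO livers, and *Parp3* (0.55, 0.0286), which was higher. *Mat1a* measured 1680, 5940, 3520 and 2680 CPM in WT livers and 976 to 2690 in SIRT1intKO livers. *Slc25a51* measured 100, 170, 119 and 101 CPM in WT livers and 37.8 to 109 in SIRT1intKO livers. *Afmid* measured 6.46 and 6.17 CPM in WT livers 1 and 2, within the SIRT1intKO range of 2.86 to 18.9, against 40.3 and 45.5 in WT livers 3 and 4. It turned from -2.33 against WT livers 3 and 4 to 0.41 against WT livers 1 and 2. *Mat1a*, *Slc25a51* and *Ahcy* were lower with either pair, and passed against WT livers 1 and 2 (-1.1, -1.02 and -0.72) but not against WT livers 3 and 4 (-0.77, -0.7 and -0.44). *Parp3* passed with either pair (0.38 and 0.71). Without WT liver 2 alone, *Mat1a* (-0.53, adjusted p 0.241), *Slc25a51* (-0.65, 0.141), *Ahcy* (-0.41, 0.134) and *Parp3* (0.32, 0.0864) did not pass. Calls were also lost for *Afmid* without SIRT1intKO liver 2 or WT liver 3 or 4, for *Slc25a51* without SIRT1intKO liver 2, 3, 6 or 7, for *Mat1a* without SIRT1intKO liver 1, 2, 6 or 7 or WT liver 3, and for *Ahcy* without SIRT1intKO liver 2 or 6. *Parp1* (0.22, adjusted p 0.441), *Parp2* (-0.1, 0.684) and *Cd38* (0.54, 0.0718) did not pass over all libraries. *Cd38* passed in edgeR without WT liver 1 (0.63, adjusted p 0.0421) or without SIRT1intKO liver 5 (0.63, 0.0168).

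Of 8 regulators and partners of SIRT1, 4 passed in WT and 3 in SIRT1intKO livers at each time, and 0 between genotypes at 0, 6 or 24 hours. The SIRT1intKO share of 37.5% was no higher than the 38.4% and 50.2% of all genes, and the WT share of 50% stood against 37.4% and 34.1%. *Foxo3*, a transcription factor that SIRT1 deacetylates, fell in each of these comparisons (-1.15 and -1.06 at 6 hours, -0.86 and -1.6 at 24 hours). *Ppargc1a*, a coactivator that SIRT1 deacetylates, rose at 6 hours (1.41 and 0.98). The SIRT1intKO change was near the threshold (adjusted p 0.0451) and was lost in 8 of 11 fits that left out 1 liver, down to 0.64 (0.21) without SIRT1intKO liver 1 at 6 hours. *Nr1h4*, which encodes the bile acid receptor FXR, fell at 24 hours (-0.88 and -1.1), and the WT change was -0.7 (adjusted p 0.117) without WT liver 1, -0.63 (0.138) without WT liver 2 and -0.3 (0.661) without both. The clock, whose CLOCK and BMAL1 proteins bind E-boxes and drive *Nampt*, was read from a list of its own. Of its 16 genes, 13 passed in WT and 14 in SIRT1intKO livers at 6 hours, and 3 and 11 at 24 hours. That was 81.2% and 87.5% at 6 hours, against 37.4% and 38.4% of all genes, and 18.8% and 68.8% at 24 hours, against 34.1% and 50.2%, so the WT share at 24 hours was below the background. The WT livers were split there, as *Per1* measured 55.8 and 111 CPM in WT livers 1 and 2 against 10.4 and 5.62 in WT livers 3 and 4. *Arntl* measured 9.28 and 7.54 CPM against 24.7 and 24. Without WT liver 2 the WT changes of *Ciart* (0.37, adjusted p 0.775, edgeR) and *Per1* (1.11, 0.0629) did not pass. *Npas2* fell (-4.66 and -6.33) and *Dbp* rose (4.39 and 5.07) at 6 hours. The hour of day of each harvest is not given in the sources used here, and the part of clock time in these values was not tested. *Nfil3* was the only clock gene that passed between genotypes at 24 hours (-1.18, adjusted p 0.0146).

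Some markers of liver and other cells differed between genotypes at 24 hours, but most of those tested did not pass. Over all genes 5.81% passed in that comparison. The 8 neutrophil genes summed to 113, 94.9, 13.9 and 7.52 CPM in the WT livers and to 22.1 to 940 CPM in the SIRT1intKO livers, with a median of 92.4. Of the 6 tested, 1 passed between genotypes (*Csf3r*, 1.75), and *Ly6g* and *Mpo* were too low to test. The log2 fold changes of the 6 ran from -2.21 to 2.34, with a median of 1.49. The 8 monocyte and macrophage genes summed to 46.7 to 77 CPM in WT and 54.5 to 233 CPM in SIRT1intKO livers, and 2 passed (*Lyz2*, 1.73, and *Ccr2*, 1.59). Of the 6 Kupffer cell genes 1 passed (*Marco*, 2.28, or 2.03 with adjusted p 0.0513 without WT liver 2). The 8 hepatocyte genes summed to 32900 to 43700 CPM in WT and 38900 to 73400 CPM in SIRT1intKO livers, and 1 passed (*Alb*, 0.85), a call lost without any 1 of SIRT1intKO livers 1 and 2 and WT livers 2 and 3. The median of the 8 was -0.03, and their range ran down to -1.37 for *G6pc*, which did not pass. Of the endothelial, stellate, cholangiocyte and lymphocyte genes tested, 0 passed in edgeR, with 2, 1, 2 and 1 at an unadjusted p under 0.05. The 8 enterocyte genes summed to 23.4 to 52 CPM in WT and 43.5 to 307 CPM in SIRT1intKO livers, nearly all of it *Fabp2*, a fatty acid binding protein that passed (1.46, adjusted p 0.028). It was 0.87 (adjusted p 0.0767) without SIRT1intKO liver 2, 1.28 (0.0623) without WT liver 1 and 1.35 (0.0741) without WT liver 2. The part of cell makeup in the values of *Nnmt* and *Nampt* was not tested. *Sirt4*, *Sirt5*, *Sirt6*, *Nampt*, *Nmnat1* and *Nnmt* share no annotated exon with another gene. Exons of *Sirt1*, *Sirt2* and *Sirt3* overlap genes on the opposite strand (*Gm16145*, *Nfkbib*, and *Ric8a* and *Psmd13*). The libraries were stranded and the pipeline ran with default settings. The strand setting that the counting applied is not given in the sources used here, so the values of these 3 genes are uncertain to that extent. Exons of *Sirt7* overlap *Mafg* on the same strand, which a strand setting does not separate.

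Across the 34 libraries several of the 10 genes ran together. *Sirt2*, *Sirt3*, *Sirt4*, *Sirt5*, *Sirt7* and *Nmnat1* all correlated positively with each other, with a Pearson r of 0.517 to 0.872 on log2 CPM. The closest pairs were *Sirt3* and *Nmnat1*, at 0.872, and *Sirt4* and *Sirt7*, at 0.868. *Nampt* ran against *Nmnat1*, at -0.712, and *Nnmt* against *Sirt7* and *Sirt4*, at -0.698 and -0.681. *Sirt1* followed none of the other 9, with values from -0.0853 to 0.241. Over all tested genes above 1 CPM, the closest to *Sirt1* were *Ints6l* (0.765), *Gpr155* (0.709) and *Arid4b* (0.706). Those closest to *Sirt3* were *Upp2* (0.96), *Prodh* (0.96) and *Upb1* (0.958), and those closest to *Nnmt* were *Mat1a* (0.939), *Spin1* (0.92) and *Ralgapa2* (0.915). For *Nampt* they were *Bmyc* (0.924), *Myo10* (0.903) and *Nmt2* (0.873), for *Sirt4* *Ssbp3* (0.944), *Tmem150a* (0.937) and *9030622O22Rik* (0.929), and for *Sirt7* *Pde4c* (0.944), *Sema4g* (0.93) and *Trim26* (0.925). For *Sirt2* they were *Prpf8* (0.891), *Ugt1a6b* (0.874) and *Clpb* (0.874), for *Sirt5* *Srd5a1* (0.88), *Nit1* (0.877) and *Ccdc77* (0.871), and for *Nmnat1* *Gm45609* (0.937), *Gm57111* (0.918) and *Rmnd1* (0.912). The libraries share groups and depth, so these are descriptions and no tests.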

How the data were processed

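Liver RNA was sequenced from WT and SIRT1intKO mice before PHx and 6 or 24 hours later, in 6 groups of 4 to 7 livers, and groups were taken from the labels. The deposited table holds expected counts, which the authors estimated with Salmon for each gene after STAR alignment in an nf-core pipeline, with GRCm39 per the submitters' processing notes. Libraries were stranded (TruSeq Stranded mRNA), and the pipeline ran with default settings. The annotation release, tool versions and strand setting of the counting are not given in the sources used here. Of 35 value columns, 1 matched no labelled library and was not used. The letter x was missing from the symbols in the table, and 1316 symbols were restored through gene identifiers with GENCODE names. Counts, of which 4.97% were not whole, were rounded. No library repeated another of its own group within sampling noise. Libraries of different groups were not compared in this way.

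The 34 libraries were fitted together with 1 mean per group in edgeR 4.0.16 (R 4.3.3) by quasi-likelihood, with TMM scaling and edgeR's filter on low counts by group, and p-values were Benjamini-Hochberg adjusted over the 14980 genes tested. The common biological coefficient of variation was 0.302. Library totals of 14892122 to 23480492 counts set the precision, and intervals are 95% intervals of the fit. Log2 CPM for correlations and principal components used a prior count of 2. The script was tested on simulated counts. DESeq2 1.42.0, other scalings and filters, the fold threshold, the replicate number as a block, the groups compared alone and leaving out libraries were alternatives. The study used DESeq2 with genotype, time point and their interaction.

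The members and gene lists were chosen with earlier results of these data known, so they are no independent support. All 10 members were named. From each list up to 3 called genes with the largest absolute log2 fold change per comparison could be named, with *Parp1*, *Parp2*, *Cd38* and *Vil1* always given. Genes named beyond that rule were chosen after their values were seen. The 3 genes most like *Sirt1* and each called member were those of at least 1 CPM with the highest Pearson correlation. All 140 list genes were matched. Sequences, exons and promoters came from reference tables of GRCm38 and RefSeq (GRCm38.p6), a build other than that of the counts, and were used for description only. Same-numbered livers of different groups did not deviate together, so numbers were not taken as pairs.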

Additional observations from a re-analysis of the deposited data

Results flagged for a closer look

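Dixon's test at the 95% level was run on rounded CPM values. Over the 10 genes and 6 groups it set 1 liver apart from the rest in 5 of 60 sets. Chance gives about 1 in 20. *Sirt1* was highest in SIRT1intKO liver 4 at 24 hours, at 13.5 CPM. *Sirt3* was lowest in untreated WT liver 2, at 42.9 CPM. *Sirt4* was highest in untreated SIRT1intKO liver 5, at 10.7 CPM, and *Sirt7* was lowest in WT liver 6 at 6 hours, at 17.1 CPM. *Nmnat1* was highest in SIRT1intKO liver 5 at 24 hours, at 10.6 CPM. Its gap over the range of the group was 0.569 against a critical value of 0.568. That margin is within the rounding, so this liver cannot be called set apart.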

How the results depend on the processing

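Of 76 log2 fold changes of the 10 genes, 75 kept their direction and side of the threshold with DESeq2. With its size factors in edgeR 76 did, and with at least 10 counts in every library 75. The number was 71 with every gene counted, 71 with upper-quartile scaling, 64 with the compared groups alone and 69 with the replicate block. The counts of genes passing, given below, are not among the 76. Leaving out 1 library kept 777 of 866. The pairs of livers left out below were chosen after seeing the data. Shares of all genes called under each setting are not given here, so the counts below show only how calls depend on the setting. Calls gained included *Sirt3* in WT livers at 6 hours with the compared groups alone and *Sirt2* in SIRT1intKO livers at 6 hours with upper-quartile scaling or the stricter filter. The cause was not tested for any of these changes.

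Between genotypes at 24 hours the count of the 10 genes passing, 1, became 0 with every gene counted, with the compared groups alone and with the replicate block, 5 without WT livers 1 and 2, 4 without WT livers 3 and 4, and 0 to 1 without single livers. For WT livers at 24 against 0 hours the 8 became 3 with the compared groups alone, 1 without WT livers 1 and 2, and 4 to 8 without single livers. At 24 against 6 hours the WT count of 3 became 0 with the compared groups alone, 2 without WT livers 1 and 2 and 5 without WT livers 3 and 4, and the SIRT1intKO count of 3 became 1 to 3 without single livers. The 6-hour SIRT1intKO count of 6 became 3 without its livers 2 and 3, and the 24-hour interaction count of 0 became 2 without WT livers 1 and 2 (*Sirt3* and *Sirt4*). With an absolute log2 fold change over 1, 2 genes passed in each genotype at 6 and at 24 hours against 0 hours, and 1 in SIRT1intKO livers at 24 against 6 hours. The 5 genes of the NAD lists that passed between genotypes at 24 hours became 8 with DESeq2, 1 with every gene counted, 0 with the compared groups alone or the block, 10 without WT livers 1 and 2, 15 without WT livers 3 and 4 and 1 to 11 without single livers.

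Same-numbered livers correlated at -0.29 to 0.21 in their deviations from the group means, with at most 1 pair over 0.1 in a comparison, so the numbers do not pair the livers. With the replicate block *Nnmt* was -0.96 between genotypes at 24 hours (adjusted p 0.11) and *Sirt2* 0.03. The block also lost the calls of *Nmnat1* in SIRT1intKO livers at 6 against 0 hours (-0.37, 0.0663) and 24 against 6 hours (-0.43, 0.0539), and in WT livers of *Sirt4* (-0.56, 0.0544) and *Nampt* (1.18, 0.107) at 24 against 0 hours and *Nampt* at 24 against 6 hours (1.37, 0.111).

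Signs turned as follows. With upper-quartile scaling, *Sirt5* (-0.02) and *Sirt6* (-0.03) turned between genotypes at 6 hours, and *Sirt6* in SIRT1intKO livers at 6 hours (0). Without SIRT1intKO livers 2 and 3 the 6-hour difference was 0.09 for *Sirt1*, 0.21 for *Sirt4*, -0.04 for *Sirt6* and -0.04 for *Nampt*, and the change from 0 hours 0.02 for *Sirt1*, -0.01 for *Sirt6* and -0.36 for *Nampt*. Without WT livers 1 and 2 the 24-hour difference was -0.23 for *Sirt5*, 1.85 for *Nampt*, -0.09 for *Parp1* and 0.02 for *Parp2*, and the WT change from 0 hours -0.24 for *Sirt1*, -0.77 for *Nampt*, -0.97 for *Ciart* and -0.47 for *Per1*, with *Nampt* at -0.56 from 6 hours. Without WT livers 3 and 4 the difference was 0.25 for *Sirt2*, 0.35 for *Sirt3*, 0.4 for *Sirt4*, 0.19 for *Sirt7*, 0.37 for *Nmnat1* and 0.41 for *Afmid*.

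Single livers left out turned signs between genotypes at 0 hours for *Sirt1* (-0.14 to 0.07), *Sirt3* (-0.08 to 0.02), *Sirt5* (-0.05 to 0.1), *Sirt7* (-0.11 to 0.05), *Nampt* (-0.01 to 0.18), *Nmnat1* (0 to 0.08) and *Nnmt* (-0.22 to 0.08), at 6 hours for *Sirt4* (-0.26 to 0.1), *Sirt5* (-0.04 to 0.13), *Sirt6* (-0.09 to 0.16) and *Sirt7* (-0.04 to 0.11), and at 24 hours for *Sirt2* (-0.14 to 0.09), *Sirt5* (-0.01 to 0.42), *Sirt6* (-0.11 to 0.02), *Nampt* (-0.76 to 0.3) and *Nmnat1* (-0.25 to 0.12). They also turned WT changes from 0 hours at 6 hours for *Sirt1* (-0.16 to 0.03) and *Nmnat1* (-0.12 to 0) and at 24 hours for *Sirt1* (-0.17 to 0.37), and the SIRT1intKO change at 6 hours for *Sirt6* (-0.03 to 0.14).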
